A study of Mus musculus with 35 samples.

Results

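Interscapular brown adipose tissue (iBAT) from 5 mice kept for 4 days at 6 °C was compared with iBAT from 5 mice kept at room temperature, and every counted gene entered the comparison. These are 10 of the 35 libraries of a cold exposure time course, in which 7 groups of 5 mice ran from room temperature to 5 days of cold. All mice were male C57BL/6J, aged 9 to 10 weeks, on standard chow with alternating light and dark. Controls stayed in the colony at 24 °C, while cold-exposed mice were kept alone in static cages without nesting, so temperature and housing cannot be told apart. White fat was trimmed away, and a single iBAT pad per mouse gave the RNA for its library, so each library is a biological replicate. As no cells were separated, fewer cells of a type and less RNA per cell cannot be told apart.

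Brown fat makes heat. Noradrenaline from sympathetic nerves raises cAMP in the brown adipocyte, fatty acids are released and burned, and uncoupling protein 1 (UCP1) lets the mitochondrial proton gradient run down as heat. Over days of cold the tissue is also rebuilt, with new brown adipocytes forming from stromal progenitors in the company of macrophages, vessels and nerves.

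The 10 libraries held between 4200294 and 5943967 counts, and mitochondrial genes took 35.0% to 42.3% of them. The library kit reads the 3′ end of each transcript, so counts do not scale with its length. Levels are given as CPM (counts scaled to a common library total) after TMM normalization. Values of the 5 mice of a group are always listed in the order of their replicate numbers. All 7 adipocyte markers examined (Ucp1, Cidea, Cox7a1, Cox8b, Adipoq, Fabp4 and Plin1) were at 359 CPM or more in each of the 10 libraries. Not all of them are particular to brown fat. In a principal component analysis, the first component (51.5% of variance) separated the groups, and the second (12.0%) set cold-exposed mice 4 and 5 (scores of 29.3 and 25.3) apart from cold-exposed mice 1 to 3 (-18.1, -21.7 and -15.6). For some lists, counts are therefore also given without mice 4 and 5, an alternative added after the data were seen. As these mice were picked from the same values, such counts are not independent evidence. The count filter was run again without them, with 11597 genes tested, so the tested members of a list can differ. Other lists changed too, and their counts without those mice are not all given.

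After 4 days of cold, 2140 of 11048 tested genes had risen (19.4%) and 2056 had fallen (18.6%), which together is 38.0% of genes. A gene was called when its adjusted p (edgeR quasi-likelihood test with Benjamini-Hochberg adjustment) was below 0.05. The difference was at least 2-fold for 599 of the genes that rose and 610 of those that fell. The values of the groups did not overlap for 2783 genes (25.2%). Against these shares, the gene lists below are described by the number of tested members that rose or fell and by their median log2 fold change, where the median of all genes tested was -0.02. Only genes that passed a count filter were tested. A gene near 0 in controls can pass it through the cold group, so a share of tested members is not a share of the list. The lists were also chosen with earlier results of these data known. Changes are written as log2 fold change ± SE, with cold over room temperature.

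**Figure D1:**
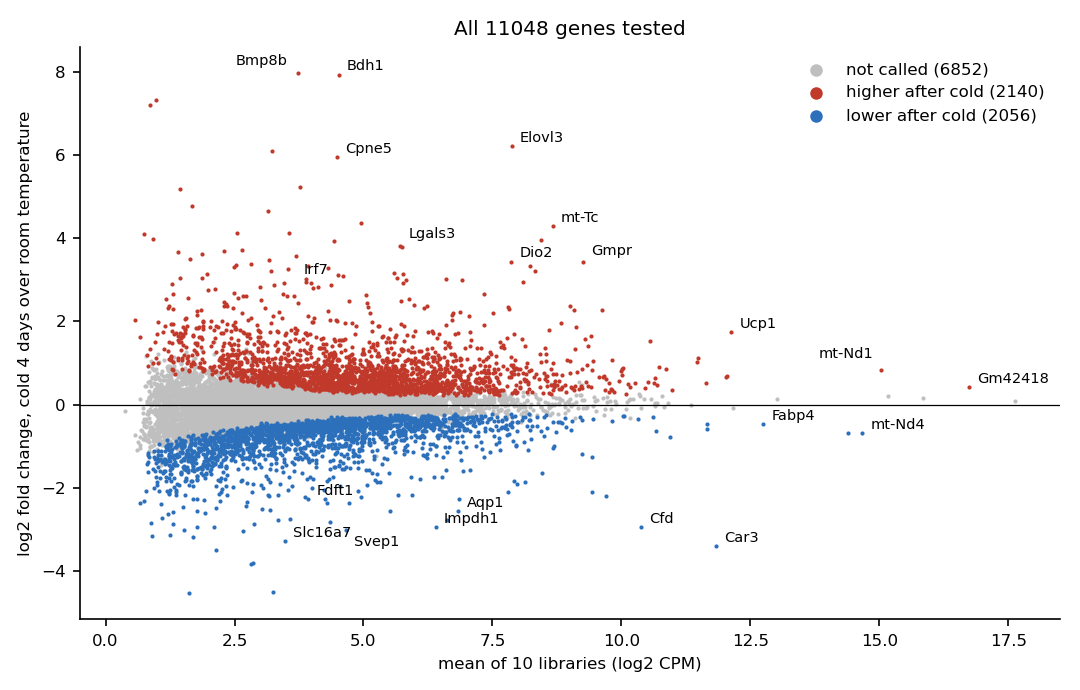
Each point is 1 of the 11048 genes tested, with its mean over the 10 libraries (log2 CPM) on the horizontal axis and its log2 fold change, cold 4 days over room temperature, on the vertical axis. The 2140 genes called higher are red, the 2056 called lower are blue, and Bmp8b, Bdh1 and Elovl3 stand highest among the labelled genes while Car3 and Slc16a7 stand lowest.

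Where the mean count was 50 or more and the groups kept apart, the largest increases were in a secreted factor, a ketone body enzyme and a fatty acid elongase. Bmp8b, a bone morphogenetic protein made by brown fat (chromosome 4, 123105165 to 123132099, plus strand, GRCm38 as all gene positions here), was at 0.207, 0, 0, 0.177 and 0 CPM in controls and 32.8, 31.5, 22.7, 20.4 and 24.9 CPM after cold. It was nearly absent from controls, which held 2 counts in all against 685 after cold, a ratio of 327 with a 95% counting interval of 90.3 to 2709. Bdh1, a mitochondrial dehydrogenase of ketone body metabolism (chromosome 16, 31422280 to 31458901, plus strand), was at 0.207, 0, 0.469, 0 and 0.197 CPM at room temperature and 23.6, 45.5, 58.1, 51.3 and 50 CPM in the cold-exposed mice. Its 4 control counts against 1178 gave a ratio of 282 with an interval of 110 to 1035, which, like that of Bmp8b, covers counting error only. Elovl3, which lengthens very long chain fatty acids (chromosome 19, 46131897 to 46135694, plus strand), was at 14.3, 5.62, 6.09, 4.61 and 0.787 CPM in controls against 429.7, 345, 397, 559.7 and 580.3 CPM after cold. No control mouse came near any cold-exposed mouse in these 3 genes, and Elovl3 changed by 6.21 ± 0.36 (adjusted p = 3.9e-09).

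The other genes at the top of the increases were of several kinds. Cpne5, which encodes a calcium-dependent membrane-binding protein of the copine family, was at 1.04, 1.04, 0.234, 0.709 and 0.394 CPM in controls and 36.9, 38.5, 48.7, 61.1 and 36.4 CPM after cold. Gmpr, a purine enzyme that turns GMP into IMP, was at 102, 102, 110.1, 121 and 82.3 CPM at room temperature and 914, 1351, 1227, 1196 and 901 CPM in the cold-exposed mice, with a change of 3.43 ± 0.14 (adjusted p = 1.1e-10). Dio2, the deiodinase that activates thyroid hormone inside the cell, was at 86.8, 61.8, 23, 14.5 and 11.2 CPM in controls against 347, 549.7, 502, 413 and 315 CPM after cold, and control mice 1 and 2 were the highest of the controls. The noncoding genes Gm32468 (5.22 ± 0.48), Gm15241 (4.37 ± 0.31) and 2310069B03Rik (4.12 ± 0.37) belonged to the same set. So did the mitochondrial tRNA genes mt-Tc (4.29 ± 0.36), mt-Tl1 (3.95 ± 0.34), mt-Tl2 (3.94 ± 0.26) and mt-Tp (3.78 ± 0.30). Lgals3 and Irf7, which completed the set, are described with the immune genes.

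By the same rule, the deepest falls included genes of the mature adipocyte and of transport. Car3, a carbonic anhydrase abundant in adipocytes (chromosome 3, 14863512 to 14872523, plus strand), was at 6211, 6887, 6729, 6928 and 6675 CPM in controls and 399, 651, 669, 731 and 700.3 CPM after cold. Cfd, the secreted serine protease adipsin (chromosome 10, 79890853 to 79892655, plus strand), was at 2175, 3000, 2359, 2013 and 2283 CPM at room temperature and 287, 291, 283, 373 and 307 CPM in the cold-exposed mice. The groups lay far apart in both genes, with changes of -3.41 ± 0.15 for Car3 (adjusted p = 1.2e-10) and -2.94 ± 0.13 for Cfd (adjusted p = 1.2e-10). Slc16a7, a monocarboxylate transporter, was at 23, 17.7, 21.1, 21.4 and 17.3 CPM in controls against 1.37, 2.96, 1.5, 2.13 and 2.30 CPM after cold. Aqp1, a water channel, was at 175, 211, 182, 203 and 206 CPM in controls and 33.0, 32.4, 41.9, 29.6 and 28.7 CPM after cold. Impdh1, the enzyme that commits IMP to guanine nucleotides, was at 73.7, 121, 134, 215 and 202 CPM at room temperature and 21.1, 17.4, 17.9, 17.7 and 23.2 CPM in the cold-exposed mice. The controls of Impdh1 varied widely, yet even the lowest lay above all cold-exposed mice. The set also held Svep1 (-3.0 ± 0.32), a matrix protein, Hcar1 (-2.83 ± 0.20), the lactate receptor of adipocytes, and Ntrk3 (-2.78 ± 0.24), a neurotrophin receptor. Lctl (-2.78 ± 0.27), 5930430L01Rik (-2.75 ± 0.25), Per3 (-2.56 ± 0.18), Mtmr14 (-2.36 ± 0.17), Acsm3 (-2.36 ± 0.16), Fdft1 (-2.27 ± 0.20) and Pxmp2 (-2.27 ± 0.30) completed it.

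Several of these genes overlap others on the opposite strand, among them Elovl3 with Pitx3, Dio2 with Gm26512, Bmp8b with Ppie and Fdft1 with Ctsb. The strand setting used in counting is not given in the sources used here, so their counts may include reads of the partner. In absolute terms, the genes that gained the most CPM were Gm42418, a locus that collects ribosomal RNA reads, mt-Nd1, Ucp1, Gpd1 and Lpl, while mt-Nd4, mt-Cytb, Car3, Fabp4 and Cfd lost the most. Gm42418 rose by 0.41 ± 0.13 with overlapping groups, and its adjusted p of 0.019 was above the threshold when control mouse 5 was left out.

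**Figure D2:**
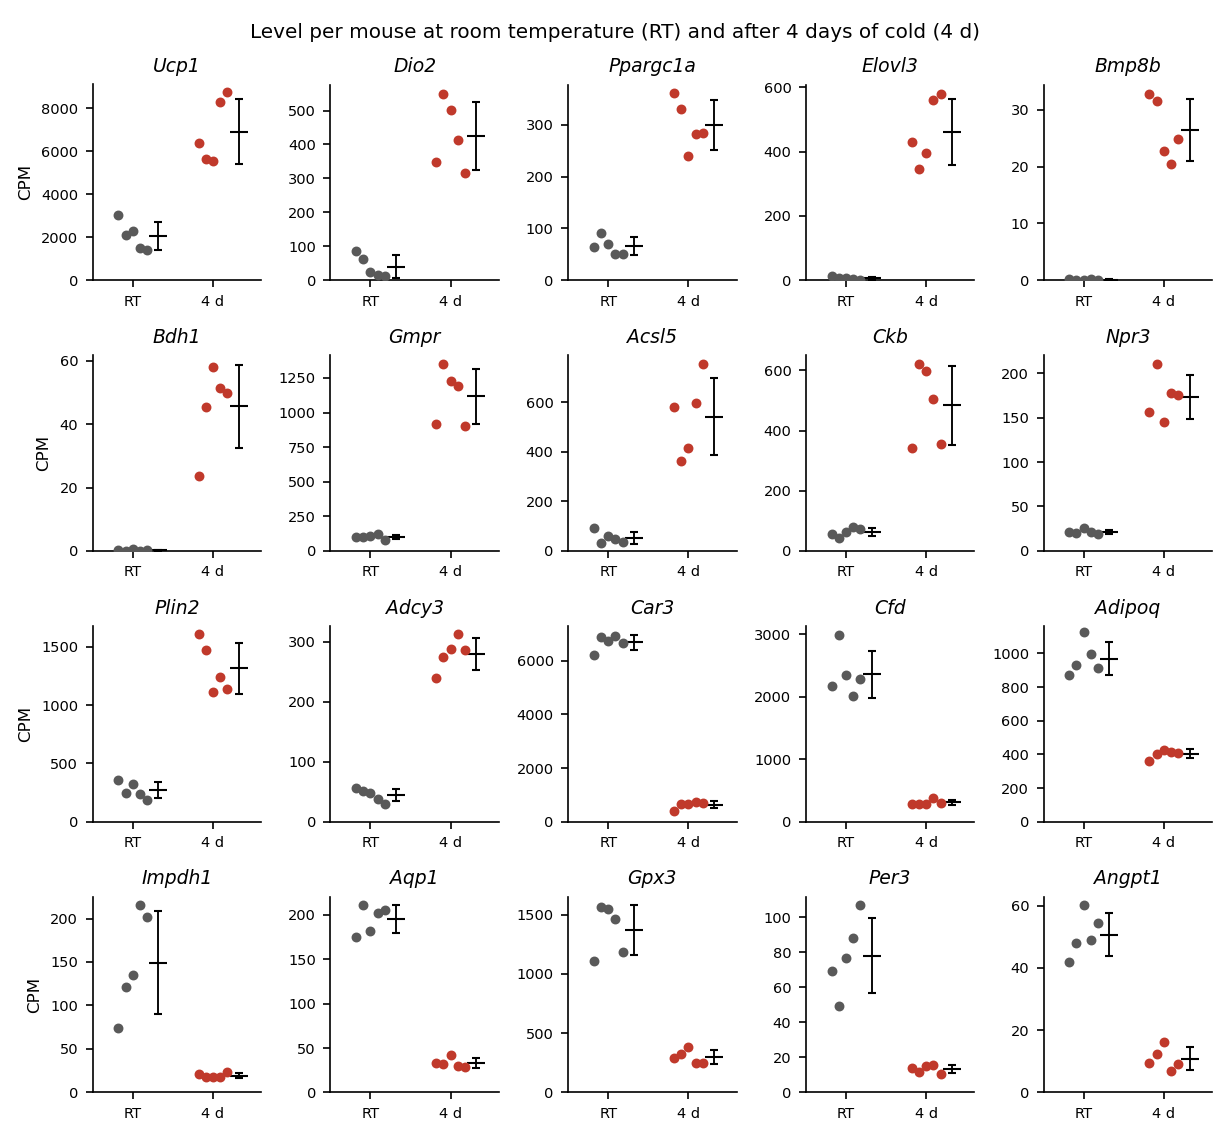
Each panel plots CPM (vertical axis, from 0) for 1 gene in the 5 room temperature mice (RT, grey) and the 5 mice after 4 days of cold (4 d, red), with the mean and SD beside the points. In all 20 panels the groups do not overlap, and the first 12 genes were higher after cold while the last 8 were lower.

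Genes of the thermogenic programme mostly rose, with 10 of 17 tested members higher and 4 lower (median 0.66). Ucp1 itself (chromosome 8, 83290352 to 83298452, plus strand) was at 3010, 2118, 2270, 1507 and 1395 CPM in controls against 6401, 5620, 5522, 8284 and 8736 CPM after cold. The cold-exposed mice were all above the highest control, cold-exposed mice 4 and 5 were the highest, and the change was 1.75 ± 0.20 (adjusted p = 3.8e-06). Ppargc1a, the coactivator PGC-1α that drives mitochondrial biogenesis, was at 64.2, 91.9, 70.5, 50 and 49.6 CPM in controls and 362, 331, 239.5, 282 and 284 CPM after cold. Its relative Ppargc1b fell (-0.54 ± 0.12), as did the brown fat regulator Prdm16 (-0.81 ± 0.19) and the fatty acid-sensing receptor Ppara (-0.37 ± 0.11), and the groups overlapped in those 3. Gk, glycerol kinase (1.79 ± 0.24), Ffar4, a fatty acid receptor (1.82 ± 0.22), Esrrb, an estrogen-related receptor (2.04 ± 0.40), and Cox7a1, the muscle and brown fat form of a cytochrome oxidase subunit (0.66 ± 0.12), all rose. Fgf21, a hormone that brown fat can secrete, was too scarce for the main test and was counted 0, 1, 0, 0 and 0 times in controls against 33, 49, 28, 21 and 7 times after cold. Its exact two-sided permutation p was 0.00794, the smallest that 5 against 5 mice allow, and 0.0725 after adjustment over the 210 scarce list genes.

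Adrenergic and cAMP signalling moved in both directions, with 7 of 22 tested members higher and 5 lower (median 0.06). Adcy3, an adenylyl cyclase, was at 55.3, 50.8, 48.0, 38.3 and 30.1 CPM at room temperature and 239, 275, 288, 312 and 286 CPM in the cold-exposed mice, with no overlap. Among receptors, Adrb3, the main β-adrenergic receptor of rodent adipocytes, rose by 0.62 ± 0.18 with overlapping groups, and Adrb1 was at -0.30 ± 0.20 (adjusted p = 0.25). Sik1, a kinase that is induced by cAMP, rose by 1.67 ± 0.33, and the soluble cyclase Adcy10 by 2.56 ± 0.40. Rgs2, which dampens G protein signalling, was at 119, 568, 164, 474 and 484 CPM in controls against 31.4, 88.7, 121, 119.7 and 61.5 CPM after cold. Controls of Rgs2 spread widely and control mouse 1 lay within the range of the cold-exposed mice. The cAMP-degrading Pde4b (0.66 ± 0.22) lost its call without cold-exposed mouse 3, without control mouse 3, 4 or 5, by library size only, with the replicate block and without cold-exposed mice 4 and 5 together. Of 13 tested immediate early genes, 3 were higher and 2 lower, near the shares of all genes. Fosl2, an AP-1 transcription factor, rose by 1.53 ± 0.26 and Egr1, a growth factor-induced transcription factor, fell (-1.30 ± 0.25).

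Genes of lipid synthesis rose in most of the lists examined. In de novo lipogenesis, 7 of 14 tested members were higher and 3 lower (median 0.58). Acly, which makes cytosolic acetyl-CoA, was at 509.7, 79.7, 558, 256 and 256 CPM in controls and 1308, 562, 638, 1024 and 1638 CPM after cold, and control mouse 2 was the lowest by far. Me1, a source of NADPH, rose by 1.39 ± 0.20. Fasn, fatty acid synthase, was at 3590, 459.9, 2433, 1621 and 1275 CPM at room temperature and 4636, 2388, 2971, 4069 and 4886 CPM in the cold-exposed mice. Its groups overlapped through control mice 1 and 3, and the call (1.01 ± 0.36, adjusted p = 0.035) was lost when any of cold-exposed mice 1, 4 or 5 or control mice 4 or 5 was left out, by library size only, without cold-exposed mice 4 and 5 together, and in the DESeq2 test. The regulator Srebf1 (-0.54 ± 0.14) and the acyl hydrolase Pnpla3 (-1.52 ± 0.25) fell.

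Among elongases and desaturases, 7 of 15 tested members rose and 1 fell (median 0.42). Besides Elovl3, Elovl6, which extends palmitate, was at 285, 125, 203, 168 and 154 CPM in controls against 658, 439.9, 579, 885 and 1047 CPM after cold. Hacd2, a dehydratase of the elongation cycle, rose by 2.30 ± 0.18, and Elovl5 rose by 1.02 ± 0.16. Of the stearoyl-CoA desaturases, Scd2 was at 17.0, 8.11, 24.8, 16.8 and 20.1 CPM in controls and 117, 67.7, 116, 93.5 and 105 CPM after cold. Scd1, the main form in adipocytes, was at 4998, 3111, 3519, 3605 and 4264 CPM at room temperature and 2708, 1370, 2048, 3449 and 3355 CPM in the cold-exposed mice. Scd2 rose (2.53 ± 0.21, adjusted p = 1.9e-07) in all 5 cold-exposed mice, whereas the fall in Scd1 (-0.59 ± 0.20, adjusted p = 0.030) came with overlapping groups and lost its call when cold-exposed mouse 1, 2 or 3 or control mouse 1 or 5 was left out, and in the DESeq2 test. Genes of the Scd family resemble each other, and reads shared between them may have been lost or split in counting.

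Cholesterol synthesis and uptake genes mostly rose, with 15 of 21 tested members higher and 1 lower (median 0.85). Insig1, which holds the sterol-sensing complex in the endoplasmic reticulum, was at 51.8, 33.7, 49.7, 33.0 and 37.6 CPM in controls against 173, 107, 178, 214 and 174 CPM after cold. Its groups did not overlap, and neither did those of Sqle (2.25 ± 0.31), Nsdhl (1.89 ± 0.23), Cyp51 (1.58 ± 0.17) and Hmgcs1 (0.85 ± 0.12), all enzymes of the pathway. The single member that fell was Fdft1, squalene synthase, at 19.5, 24.8, 25.8, 27.6 and 28.7 CPM in controls and 4.69, 4.44, 3.01, 5.96 and 8.04 CPM after cold. The core of the sterol regulatory element, searched as TCACNCCAC on both strands in the 250 bases before the RefSeq start (GRCm38.p6), occurred in 1 of the 17 members with an entry (5.88%), Hmgcs1, and in 1.22% of all 27025 genes.

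Triglyceride synthesis genes rose in 9 of 17 tested members and fell in 2 (median 0.37). Agpat2, the acyltransferase of the second step, was at 1227, 569, 895, 653 and 529.6 CPM at room temperature and 2037, 1901, 2073, 2666 and 2540 CPM in the cold-exposed mice. Gpd1 (1.11 ± 0.18), which supplies glycerol 3-phosphate, and Gpam (1.02 ± 0.11), the first acyltransferase, rose too. Dgat2, which makes triglyceride from diglyceride, fell, at 849, 742, 906, 898 and 767 CPM in controls against 303, 322, 395, 422 and 390.4 CPM after cold. For lipolysis and lipid droplet genes, 4 of 15 tested members rose and 4 fell (median 0.07). The droplet coat protein Plin2 was at 361, 249.6, 319, 239 and 189 CPM in controls and 1608, 1472, 1114, 1239 and 1141 CPM after cold, while Cidec (-0.42 ± 0.09), which favours large droplets, and Pnpla2 (-0.29 ± 0.09), the triglyceride lipase ATGL, fell slightly, the latter without its call when cold-exposed mouse 2 was left out, without the count filter and with all 7 groups in 1 fit.

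Fatty acid uptake and activation genes changed in 7 of 18 tested members upwards and in 3 downwards (median 0.26). Acsl5, an acyl-CoA synthetase, was at 91.5, 31.0, 60.9, 50 and 36.0 CPM at room temperature and 583, 364, 415, 597 and 754 CPM in the cold-exposed mice, every cold-exposed mouse above every control. Lpl, the lipase that frees fatty acids from lipoproteins, rose (0.68 ± 0.11) and its inhibitor Angptl4 fell (-1.28 ± 0.15). Fabp3, a fatty acid carrier, rose (1.08 ± 0.14) while Fabp4, the adipocyte carrier, fell (-0.46 ± 0.12).

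Fatty acid oxidation was less one-sided. In mitochondrial oxidation, 8 of 21 tested members rose and 4 fell (median 0.24). Cpt2 (1.00 ± 0.12) and Slc25a20 (0.69 ± 0.11), which carry acyl groups into the matrix, rose, as did Acadvl (0.49 ± 0.10), and the thiolase Acaa2 fell (-0.65 ± 0.10). Cpt1a (0.73 ± 0.24) overlapped between groups and lost its call without cold-exposed mouse 2, without control mouse 3 or 5, and by library size only. Of 33 tested peroxisome genes, 13 rose and 9 fell, and the rises were 7 and the falls 11 by library size only. They were 8 and 9 without cold-exposed mice 4 and 5, and 14 and 5 without cold-exposed mouse 2. Without control mouse 4 they were 7 and 8, and without control mouse 5 they were 8 and 6. Abcd2, a peroxisomal fatty acid importer, fell (-1.86 ± 0.16). Ehhadh, an oxidation enzyme, was at 0.81 ± 0.28, a call lost when any of 6 mice was left out and by library size only.

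Acyl-CoA thioesterases, which free fatty acids from coenzyme A, rose in 7 of 11 tested members and fell in 0 (median 0.74). Acot5 had no count in any control and between 15 and 27 counts in each cold-exposed mouse, at least 32.2-fold higher against 3 counts over the control group. Acot11 was at 78.3, 31.4, 61.4, 42.2 and 33.9 CPM in controls against 230.5, 153, 153, 252 and 287 CPM after cold, and Acot2 rose by 1.64 ± 0.18. Acot2 and Acot5 belong to a cluster of near-identical copies, so reads could not always be placed and their values are uncertain.

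Genes of sugar use rose as well. Of 20 tested glycolysis genes, 14 rose and 2 fell (median 0.80). Pfkp, a phosphofructokinase, was at 45.1, 34.1, 46.2, 32.6 and 30.7 CPM in controls and 138, 115, 128, 112 and 131 CPM after cold, with no overlap. Hk1 (1.36 ± 0.15), Pgam1 (1.56 ± 0.15), Gapdh (1.61 ± 0.29) and Ldha (1.01 ± 0.18) rose, and so did the insulin-responsive glucose transporter Slc2a4 (0.53 ± 0.12). In pyruvate handling, 9 of 14 rose and 1 fell (median 0.42). Mpc2, a subunit of the mitochondrial pyruvate carrier, was at 480.1, 313, 426, 302 and 280.3 CPM at room temperature and 927, 715, 794, 1065 and 1251 CPM in the cold-exposed mice. Pdk4, the kinase that switches pyruvate dehydrogenase off, rose by 0.93 ± 0.23 with overlap, and Pcx, pyruvate carboxylase, fell (-0.45 ± 0.12).

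In the tricarboxylic acid cycle, 4 of 17 tested members rose and 2 fell (median 0.11), near the shares of all genes, and the isocitrate step split. The NAD-linked subunit Idh3a was at 1412, 1213, 1604, 1276 and 1179 CPM in controls against 2150, 2399, 2235, 2651 and 2567 CPM after cold. The NADP-linked Idh2 was at 282, 295, 335, 373 and 362 CPM in controls and 155, 213, 200.2, 140.3 and 121 CPM after cold. Idh3a rose (0.84 ± 0.11, adjusted p = 1.2e-05) and Idh2 fell (-0.99 ± 0.14, adjusted p = 4.7e-05), with no overlap in either. Of 6 tested genes of ketone bodies and monocarboxylates, 2 rose (Bdh1, and the transporter Slc16a1 by 1.05 ± 0.13) and 1 fell (Slc16a7).

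Breakdown of branched-chain amino acids was weighted downwards, with 9 of 20 tested members lower and 4 higher (median -0.22). Bcat2, the mitochondrial transaminase that starts the pathway, was at 26.3, 29.7, 27.6, 29.4 and 32.1 CPM at room temperature and 13.1, 14.6, 16.5, 13.4 and 14.9 CPM in the cold-exposed mice. Aldh6a1, which acts late in valine breakdown, fell (-1.26 ± 0.10), while Pcca, a propionyl-CoA carboxylase subunit, rose by 0.75 ± 0.15. Among purine nucleotide enzymes 5 of 24 rose and 4 fell (median -0.02), near the shares of all genes, and the ends of the range were Gmpr and Impdh1, which act in opposite directions between IMP and GMP. Ampd2, an AMP deaminase, fell (-1.73 ± 0.19).

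In serine and one-carbon metabolism 4 of 15 tested members rose and 2 fell (median 0.28), and 2 rose without cold-exposed mouse 2, without control mouse 3 or 5, by library size only, with the replicate block or in the DESeq2 test. Mthfd2, the mitochondrial folate enzyme of dividing cells, was at 3.93, 3.54, 4.45, 2.83 and 2.36 CPM in controls against 37.1, 38.5, 30.6, 11.7 and 13.6 CPM after cold. Cold-exposed mice 4 and 5 were above every control but well below cold-exposed mice 1 to 3. Psat1, a serine synthesis enzyme, was at 0.79 ± 0.30 (adjusted p = 0.046), a call lost when any of 5 mice was left out, by library size only, with the replicate block and in the DESeq2 test. Creatine and calcium cycling genes rose in 5 of 12 tested members and fell in 1 (median -0.09). Ckb, cytosolic creatine kinase, was at 57.2, 41.6, 62.1, 79.9 and 73.0 CPM in controls and 341, 621, 597, 506 and 355 CPM after cold. Alpl, a phosphatase (2.84 ± 0.18), Ryr2, a calcium release channel (1.90 ± 0.30), and Atp2a2, the calcium pump SERCA2 (0.92 ± 0.12), rose, with no overlap in any of these 4 genes.

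Nuclear genes of the respiratory chain rose more often than they fell, by small amounts. For complex I subunits, 13 of 37 rose and 5 fell (median 0.10), for complex III and IV subunits 11 of 25 rose and 4 fell (median 0.14), and for ATP synthase subunits 4 of 16 rose and 0 fell (median 0.12). These counts moved with the mice included. The complex I falls were 3 without any one of cold-exposed mice 1 to 3. Without cold-exposed mice 4 and 5, complex I had 6 higher and 8 lower, complexes III and IV had 7 and 5, and ATP synthase had 2 and 0. By library size only, complex I had 9 higher and 8 lower. Among single subunits, Uqcrfs1, the Rieske protein of complex III, rose (0.70 ± 0.13) and Ndufa4 fell (-0.56 ± 0.09).

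Mitochondrial ribosome genes rose in 33 of 75 tested members and fell in 4 (median 0.24), which was 25 and 6 without cold-exposed mice 4 and 5, and 18 and 8 by library size only. The falls were 2 without any one of cold-exposed mice 2 and 3 or control mice 1 and 3. Cytosolic ribosome genes were weighted the other way, with 12 of 80 higher and 28 lower (median -0.18), although the rises were 6 without control mouse 4, 7 without control mouse 5 and 6 by library size only. Mitochondrial import genes rose in 8 of 21 tested members and fell in 0, mitochondrial carriers rose in 15 of 36 and fell in 5, and proteasome genes rose in 10 of 37 and fell in 1. By library size only, 6 proteasome genes rose and 2 fell. Slc25a34, a carrier of the inner membrane, was at 13.9, 15.2, 8.44, 6.02 and 2.36 CPM at room temperature and 38.5, 49.0, 55.8, 75.6 and 65.9 CPM in the cold-exposed mice, and control mouse 5 was the lowest.

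Transcripts of the mitochondrial genome did not move as a block. mt-Nd1, a complex I subunit gene, was at 25284, 25578, 26968, 21336 and 22266 CPM in controls against 38999, 34884, 41458, 49466 and 50674 CPM after cold. mt-Nd4, another complex I subunit gene, was at 29354, 30648, 32094, 36990 and 31874 CPM in controls and 13229, 13440, 18990, 24897 and 28926 CPM after cold. mt-Cytb, of complex III, was at 25496, 27750, 27874, 25892 and 24923 CPM at room temperature and 10597, 9963, 14486, 21512 and 25409 CPM in the cold-exposed mice. mt-Nd1 rose in all 5 cold-exposed mice, most in mice 4 and 5. The falls in mt-Nd4 (-0.69 ± 0.19, adjusted p = 0.0077) and mt-Cytb (-0.69 ± 0.21, adjusted p = 0.016) were deep in cold-exposed mice 1 to 3 and shallow in mice 4 and 5. The mt-Cytb groups overlapped, and its call was lost without cold-exposed mouse 1 and in the DESeq2 test. mt-Nd3 (1.33 ± 0.27) and mt-Nd6 (1.11 ± 0.09), which lies on the other strand and overlaps the end of mt-Nd5, rose, while mt-Co1, a cytochrome oxidase subunit gene, was at 0.14 ± 0.10 (adjusted p = 0.32). Of the 22 mitochondrial tRNA genes, a set chosen after their values were seen, 13 were tested and all 13 were higher (median 3.22).

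mt-Co2, mt-Co3, mt-Atp6, mt-Atp8 and mt-Nd4l had at most 12 counts in any library, so these counts do not cover the mitochondrial genome evenly. The mitochondrial share of all counts was 39.9% ± 1.15 (SD, n = 5) in controls and 38.5% ± 2.90 (SD, n = 5) after cold, a difference of -1.46 percentage points that was within the spread (exact two-sided permutation test, p = 0.317). Beside it, the share of Gm42418 was 9.76% ± 0.96 against 11.8% ± 1.12 (exact permutation p = 0.0159, adjusted p = 0.0317), and 19386 ± 893 genes were detected against 17081 ± 648 (exact permutation p = 0.00794, adjusted p = 0.0317). These adjusted values are over 4 library measures, of which the fourth, total counts, was 4727700 ± 505879 against 5428645 ± 320586 (exact permutation p = 0.0397, adjusted p = 0.0529).

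**Figure D3:**
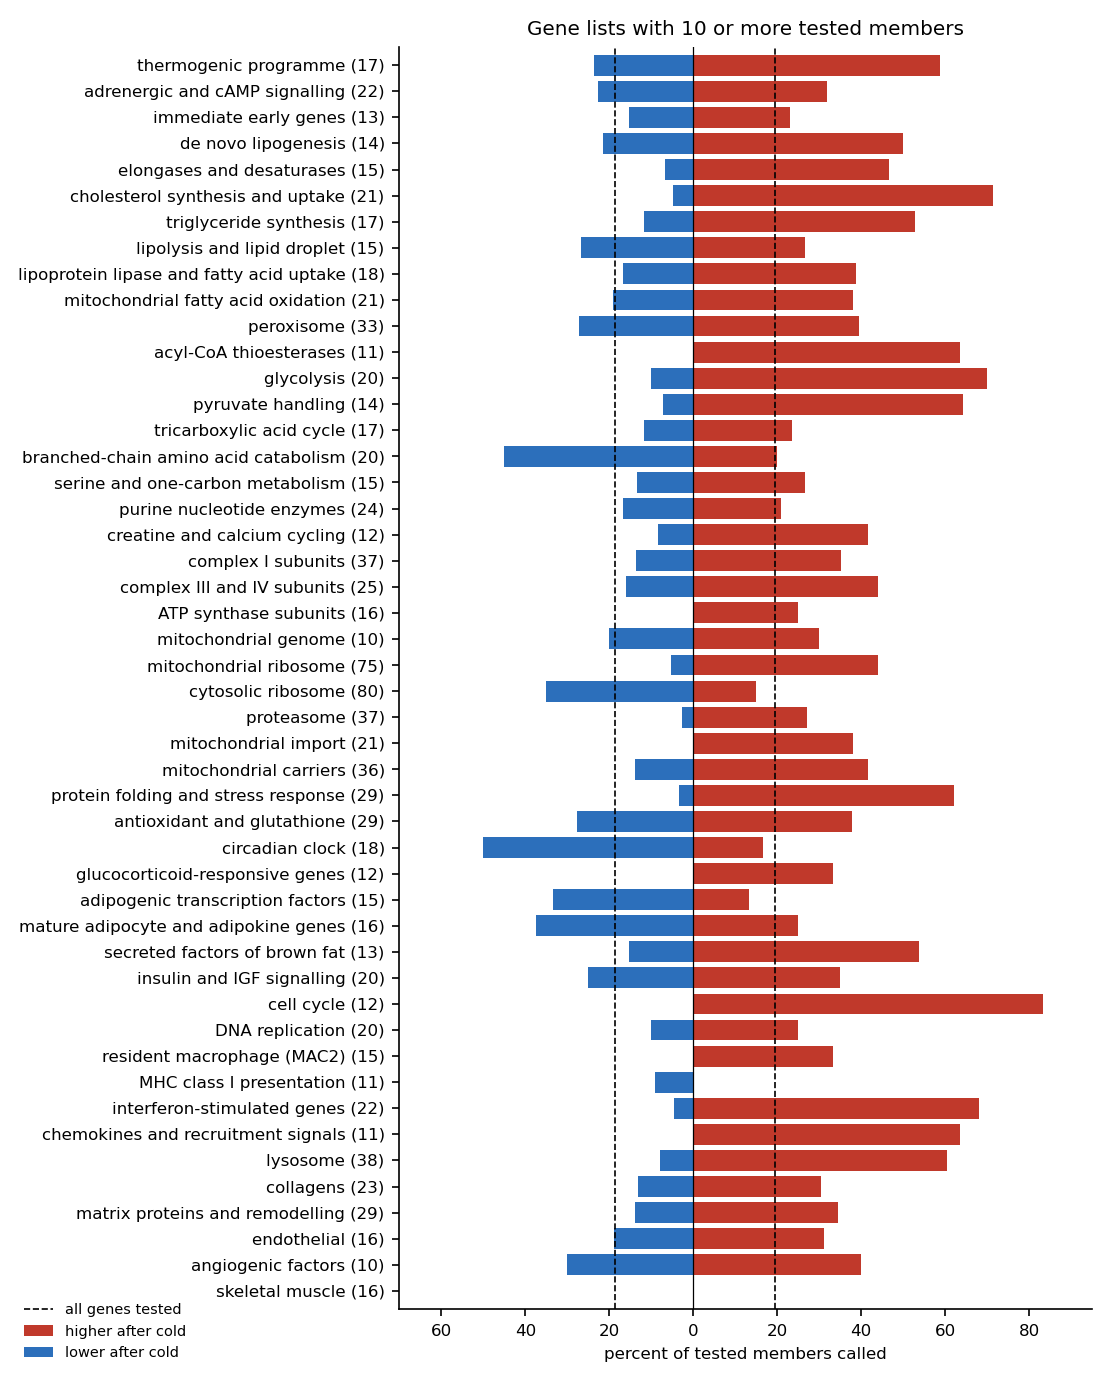
Bars give the percent of tested members called higher (red, to the right) or lower (blue, to the left) after cold for each list with 10 or more tested members, the number tested in parentheses. Dashed lines mark the shares over all genes, 19.4% and 18.6%. The longest red bars belong to the cell cycle, cholesterol, glycolysis and interferon-stimulated lists, and the longest blue bars to the circadian clock and branched-chain amino acid lists. The cell cycle bar covers only 12 of 32 listed genes, and genes near 0 in controls can pass the count filter through the cold group.

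Protein folding and stress response genes rose in 18 of 29 tested members and fell in 1 (median 0.56). Hsph1, a cytosolic heat shock protein, was at 8.28, 15.4, 10.8, 8.51 and 9.25 CPM in controls against 66.8, 40.5, 61.1, 59.0 and 54.4 CPM after cold. Hsp90aa1 (1.92 ± 0.15) and Hspa8 (1.41 ± 0.12), cytosolic chaperones, rose too. So did Atf4 (0.98 ± 0.14), Atf5 (1.72 ± 0.18) and their target Trib3 (1.5 ± 0.26), of the integrated stress response, while Xbp1, of the endoplasmic reticulum response, was the member that fell (-0.70 ± 0.14). Antioxidant and glutathione genes split into 11 higher and 8 lower of 29 tested (median 0.11). Gpx3, the secreted glutathione peroxidase, was at 1111, 1565, 1545, 1460 and 1185 CPM in controls and 288, 324, 385, 251 and 251 CPM after cold. Hmox1, heme oxygenase 1, was at 1.24, 0.832, 0.937, 1.42 and 0.590 CPM at room temperature and 11.3, 11.1, 4.14, 4.26 and 3.83 CPM in the cold-exposed mice, highest in cold-exposed mice 1 and 2, and Srxn1, a peroxiredoxin reductase, rose by 0.88 ± 0.16.

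The circadian clock list was weighted downwards, with 9 of 18 tested members lower and 3 higher (median -0.59). The study does not give the hour of tissue collection for each group, and its part in these values was not tested. Dbp, a clock output factor, was at 78.3, 53.3, 91.9, 90.4 and 104 CPM in controls against 30.1, 18.3, 13.3, 17.7 and 13.4 CPM after cold. Per3, a clock repressor, was at 69.4, 49.1, 76.6, 88.2 and 107 CPM in controls and 13.9, 11.5, 14.9, 15.5 and 10.3 CPM after cold. Arntl, the clock activator BMAL1, was at 1.24, 1.25, 1.41, 1.59 and 2.36 CPM at room temperature and 3.52, 4.81, 6.96, 6.18 and 7.85 CPM in the cold-exposed mice. Arntl rose (1.88 ± 0.30, adjusted p = 1.5e-04), as did Nfil3 (1.54 ± 0.21), and Nr1d1 was at -0.40 ± 0.17 (adjusted p = 0.064). Cirbp, the cold-inducible RNA-binding protein, fell (-1.46 ± 0.17), and its relative Rbm3 was at -0.63 ± 0.28 (adjusted p = 0.085). Of 12 tested glucocorticoid-responsive genes, 4 rose and 0 fell (median 0.10). Cdkn1a, a cell cycle inhibitor also induced by stress, rose by 1.90 ± 0.19, and Fkbp5, a receptor co-chaperone, was at -0.63 ± 0.27 (adjusted p = 0.081). By library size only, 3 members of that list rose and 3 fell.

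Mature adipocyte and adipokine genes fell in 6 of 16 tested members and rose in 4 (median -0.12). Adipoq, adiponectin, was at 873, 933, 1124, 996 and 912 CPM in controls against 359, 403, 428, 414 and 410.3 CPM after cold. Lep, leptin, was at 6.63, 3.54, 22.5, 11.5 and 20.5 CPM in controls and 1.95, 3.15, 0.752, 1.92 and 0.957 CPM after cold, low in every cold-exposed mouse. Both fell with no overlap, and the changes were -1.26 ± 0.10 for Adipoq (adjusted p = 6.1e-08) and -2.86 ± 0.48 for Lep (adjusted p = 1.8e-04). Npr3, the receptor that clears natriuretic peptides, was the clearest rise of the list, at 21.5, 20, 25.5, 21.4 and 19.3 CPM at room temperature and 156, 211, 146, 178 and 175 CPM in the cold-exposed mice, a change of 3.01 ± 0.12 (adjusted p = 1.1e-10). Adipogenic transcription factors fell in 5 of 15 tested members and rose in 2 (median -0.39), where Cebpa fell (-0.89 ± 0.09) and Cebpb rose (0.77 ± 0.17).

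Among secreted factors of brown fat, 7 of 13 tested members rose and 2 fell (median 0.51). Besides Bmp8b, the rises included Ptgds, a prostaglandin D synthase (2.33 ± 0.34), Metrnl, a secreted hormone also made by muscle (1.12 ± 0.30), and Lgals3bp, a secreted glycoprotein (2.39 ± 0.37). Nrg4, a growth factor of the neuregulin family (-0.91 ± 0.11), and Vegfb (-0.91 ± 0.14) fell, and 4 members fell without cold-exposed mouse 3. Gdf15, a stress cytokine too unevenly counted for the main test, had 2, 0, 0, 1 and 1 counts in controls and 171, 237, 124, 14 and 9 after cold (exact permutation p = 0.00794, adjusted p = 0.0725). Insulin and IGF signalling had 7 of 20 higher and 5 lower (median 0.04), but 4 higher and 6 lower by library size only. Pik3r1, the regulatory subunit of PI3 kinase (-1.57 ± 0.15), and Irs1 (-0.73 ± 0.16) fell, and Igfbp3, an IGF-binding protein, rose (1.5 ± 0.22).

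Genes of dividing cells were mostly scarce. Of the 32 cell cycle genes listed, 12 passed the count filter, and 10 of these rose while 0 fell (median 1.76). Genes that are near 0 in controls pass the filter through the cold group, so the share over tested members is not a share of the list. Top2a, a topoisomerase of dividing cells, was at 3.31, 2.08, 3.51, 3.01 and 5.71 CPM in controls against 20.1, 35.0, 33.5, 8.52 and 10.7 CPM after cold. Mki67, the proliferation marker, was at 1.04, 1.25, 0.703, 1.24 and 0.787 CPM in controls and 8.40, 12.0, 18.6, 3.41 and 8.42 CPM after cold. Cold-exposed mouse 4 was the lowest of its group in both, still above all controls. Cenpf rose by 3.04 ± 0.49 and Cdk1 by 1.59 ± 0.45, the latter with overlap. Birc5, which did not pass the filter, had 1, 1, 1, 5 and 1 counts in controls and 20, 29, 33, 10 and 8 after cold (exact permutation p = 0.00794, adjusted p = 0.0725). Of 20 tested DNA replication genes 5 rose, Mcm2 of the helicase by 1.48 ± 0.29 among them, and 2 fell, including Rfc3 of the clamp loader (-1.21 ± 0.29). By library size only 3 DNA replication genes rose and 2 fell, without cold-exposed mice 4 and 5 7 rose and 1 fell, and 9 rose without the count filter, in the DESeq2 test or with all 7 groups in 1 fit. For the cell cycle list, 17 genes were called higher without cold-exposed mice 4 and 5, 19 in the DESeq2 test or with all 7 groups in 1 fit, and 21 without the count filter.

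Some macrophage genes rose, several of them only or mainly in cold-exposed mice 1 to 3. Of the 11 genes of lipid-handling macrophages (MAC1), 8 were tested, and 8 of them rose (median 0.77). The study named these genes from its own single-cell libraries of cold-exposed mice, so their direction is not independent evidence, and some of them, such as Lpl and Plin2, are also made by adipocytes. Lgals3, galectin 3, was at 6.42, 4.58, 8.44, 4.25 and 11.4 CPM at room temperature and 162, 163, 133, 12.1 and 18.4 CPM in the cold-exposed mice. Gpnmb, a lysosomal membrane glycoprotein of lipid-laden macrophages, was at 2.69, 3.54, 3.98, 2.30 and 6.10 CPM in controls against 45.9, 50.9, 38.9, 2.13 and 1.91 CPM after cold. Cold-exposed mice 1 to 3 were far above all controls in both, and mice 4 and 5 were just above the controls in Lgals3 and just below them in Gpnmb. The scarce Trem2, a lipid-sensing receptor of these macrophages, had 1, 0, 0, 3 and 5 counts in controls and 19, 27, 22, 0 and 4 after cold (exact permutation p = 0.0952, adjusted p = 0.313). Spp1 and Mmp12, the other members outside the main test, were not called either (exact permutation, adjusted p = 0.248 and 0.570). Without cold-exposed mice 4 and 5, 10 members were called higher. Ctsd, a lysosomal protease, was higher in all 5 cold-exposed mice, at 461, 391, 478, 425 and 377 CPM in controls and 902, 779, 712, 732 and 743 CPM after cold.

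Resident macrophages were followed with a list that joins markers the study gives for its resident cluster (MAC2) with others from general knowledge. In its single-cell libraries the study reported fewer MAC2 cells after cold, and the list does not count cells. Of the 15 tested members of the list, 5 rose (median 0.45). Leaving out any one of cold-exposed mice 1 to 3 or control mice 1, 2 or 4 brought this to 2 or 3 members, library size only to 2 and the replicate block to 3, whereas 9 were called without cold-exposed mice 4 and 5. Pf4, a chemokine of resident macrophages, was at 12.4, 11.9, 21.8, 12.2 and 11.8 CPM at room temperature and 37.9, 39.8, 33.7, 25.1 and 30.1 CPM in the cold-exposed mice, with no overlap. C1qa (0.70 ± 0.25) and Lyve1 (0.90 ± 0.30) were called with overlapping groups and lost the call when any of 7 and any of 5 mice was left out, and by library size only. C1qa also lost it with the replicate block, and Lyve1 with all 7 groups in 1 fit. Mrc1, the mannose receptor CD206, was at 0.36 ± 0.18 (adjusted p = 0.12). Adgre1, which encodes the macrophage marker F4/80, was at 1.66, 0.624, 2.58, 1.77 and 19.7 CPM in controls against 10.7, 9.81, 9.40, 2.77 and 3.45 CPM after cold, where control mouse 5 was the highest of all 10. The summed level of the 15 genes of this list was 186 to 272 CPM in controls and 230.3 to 390.5 CPM after cold, and its part in the immune results that follow was not tested.

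Of 19 listed chemokines and recruitment signals, 11 passed the count filter, of which 7 rose and 0 fell (median 0.96). The rises were 12 without the count filter and 10 without cold-exposed mice 4 and 5. Ccl6, a chemokine of myeloid cells, was at 8.08, 4.16, 14.3, 5.67 and 11.6 CPM in controls and 44.7, 57.4, 47.8, 11.7 and 14.6 CPM after cold. Ccl8, which attracts monocytes, was at 2.90, 0.624, 1.87, 1.77 and 3.35 CPM at room temperature and 11.5, 10.9, 7.52, 4.05 and 6.70 CPM in the cold-exposed mice. Cold-exposed mice 4 and 5 were the lowest of their group in both, and only Ccl8 showed no overlap. Cx3cl1, the membrane-bound fractalkine (1.71 ± 0.35), and Csf1, the macrophage growth factor (0.80 ± 0.23), also rose. Lysosome genes rose in 23 of 38 tested members and fell in 3 (median 0.49), against 28 and 1 without cold-exposed mice 4 and 5. For MHC class II presentation, edgeR called 0 of 7 members, with 0 at an unadjusted p below 0.05 and 0 called by DESeq2, and Cd74, the invariant chain, was at 25.9, 31.8, 35.6, 28.5 and 47.4 CPM in controls against 23, 39.1, 38.9, 18.1 and 17.4 CPM after cold. Without cold-exposed mice 4 and 5, 2 of these genes rose. MHC class I presentation had 0 of 11 higher and 1 lower, against 4 higher and 0 lower without those mice. The member that fell lost its call without any one of 8 mice, and 1 or 2 members rose without cold-exposed mouse 4 or 5 or control mouse 5. Of 5 tested dendritic cell genes, 1 rose (Irf8, 1.26 ± 0.43, a call lost without any one of 6 mice, by library size only, with the replicate block and in the DESeq2 test) and 2 fell, among them Naaa (-0.86 ± 0.21). The dendritic counts were 2 and 2 without cold-exposed mice 4 and 5, with a median of 0.27 against -0.46 with all mice.

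Of 27 listed interferon-stimulated genes, the antiviral programme switched on by type I and II interferons, 22 passed the count filter. Of these 22, 15 rose and 1 fell (median 1.65). The promoters of interferon-stimulated genes often carry an interferon-stimulated response element, searched here as 2 copies of GAAA with any 2 bases between them, on both strands in the 250 bases before the RefSeq start (GRCm38.p6). It occurred in 10 of the 19 members with an entry (52.6%) and in 3.46% of all 27025 genes. Among the 12 members with an entry that rose, 6 held it. Stretches of 120 bases from 3 members that rose are shown so that the matches can be seen, read 5′ to 3′ along the strand of the gene, with matches in capitals. Isg15 lies on the minus strand (chr4:156200826-156200945) with 3 overlapping matches, Ifit3 on the plus strand (chr19:34583335-34583454) with 2 matches to the reverse complement, and Bst2 on the minus strand (chr8:71537535-71537654) with 2 overlapping matches. A match describes these letters and not a bound factor.
Isg15: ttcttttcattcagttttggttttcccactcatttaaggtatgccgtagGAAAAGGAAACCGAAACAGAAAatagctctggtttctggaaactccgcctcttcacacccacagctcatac
Ifit3: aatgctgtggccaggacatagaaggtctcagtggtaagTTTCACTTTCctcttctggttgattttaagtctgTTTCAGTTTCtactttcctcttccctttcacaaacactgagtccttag
Bst2: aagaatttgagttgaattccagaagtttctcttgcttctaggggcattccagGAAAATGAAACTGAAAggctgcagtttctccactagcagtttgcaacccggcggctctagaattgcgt

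The mice differed widely in these genes. Irf7, the transcription factor that amplifies the interferon response, was at 1.86, 2.08, 3.28, 1.24 and 1.57 CPM in controls and 45.3, 41.6, 19.7, 6.18 and 5.55 CPM after cold. Isg15, a ubiquitin-like protein, was at 1.04, 1.66, 1.41, 2.30 and 2.36 CPM at room temperature and 36.5, 26.7, 13.9, 1.49 and 4.79 CPM in the cold-exposed mice. Ifit3, an RNA-binding antiviral protein, was at 3.73, 2.50, 4.45, 3.37 and 10.8 CPM in controls against 82.4, 54.2, 27.6, 8.94 and 9.00 CPM after cold. Cold-exposed mouse 1 was the highest in all 3, followed by mice 2 and 3, while mice 4 and 5 lay just above the controls for Irf7 and within their range for Ifit3. For Isg15, mouse 4 lay within the range of the controls and mouse 5 above it. Bst2, which tethers virus particles, was at 3.52, 2.91, 1.41, 3.37 and 3.35 CPM in controls and 36.1, 34.2, 16.9, 4.26 and 2.30 CPM after cold. Usp18, which removes ISG15 from proteins, rose by 3.35 ± 0.49, and Ly6e by 1.21 ± 0.22, both with no overlap. Ifi27l2a was the member that fell (-0.51 ± 0.16), a call lost without cold-exposed mouse 4 or 5 or both, without control mouse 3, and with all 7 groups in 1 fit. Ifit3 has a near-identical copy, Ifit3b, so its count may be split.

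Counted mouse by mouse, 20, 19 and 18 of the 22 tested interferon-stimulated genes were above all 5 controls in cold-exposed mice 1, 2 and 3, against 9 and 10 in mice 4 and 5. Over all genes tested, this share was between 28.6% and 30.4% in each of the 5 mice. Complex I subunits had the reverse order, with 13, 6 and 12 of 37 above all controls in mice 1 to 3 against 26 and 23 in mice 4 and 5. The TMM factors of mice 1 to 5 were 0.973, 1.07, 0.991, 0.866 and 0.882, and a lower factor gives higher CPM. Their part in this order was not tested. Without mice 4 and 5, which were picked from these same libraries, more than 22 members passed the count filter. Of those, 23 were called higher and 0 lower. The scarce Mx1, an antiviral GTPase, had 3, 2, 4, 1 and 1 counts in controls and 72, 40, 16, 9 and 7 after cold (exact permutation p = 0.00794, adjusted p = 0.0725). Lgals3, Gpnmb, Irf7, Ccl6, Ccl8 and Mthfd2 were lowest in the same 2 mice of the cold group, and whether any of them depends on another was not tested.

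**Figure D4:**
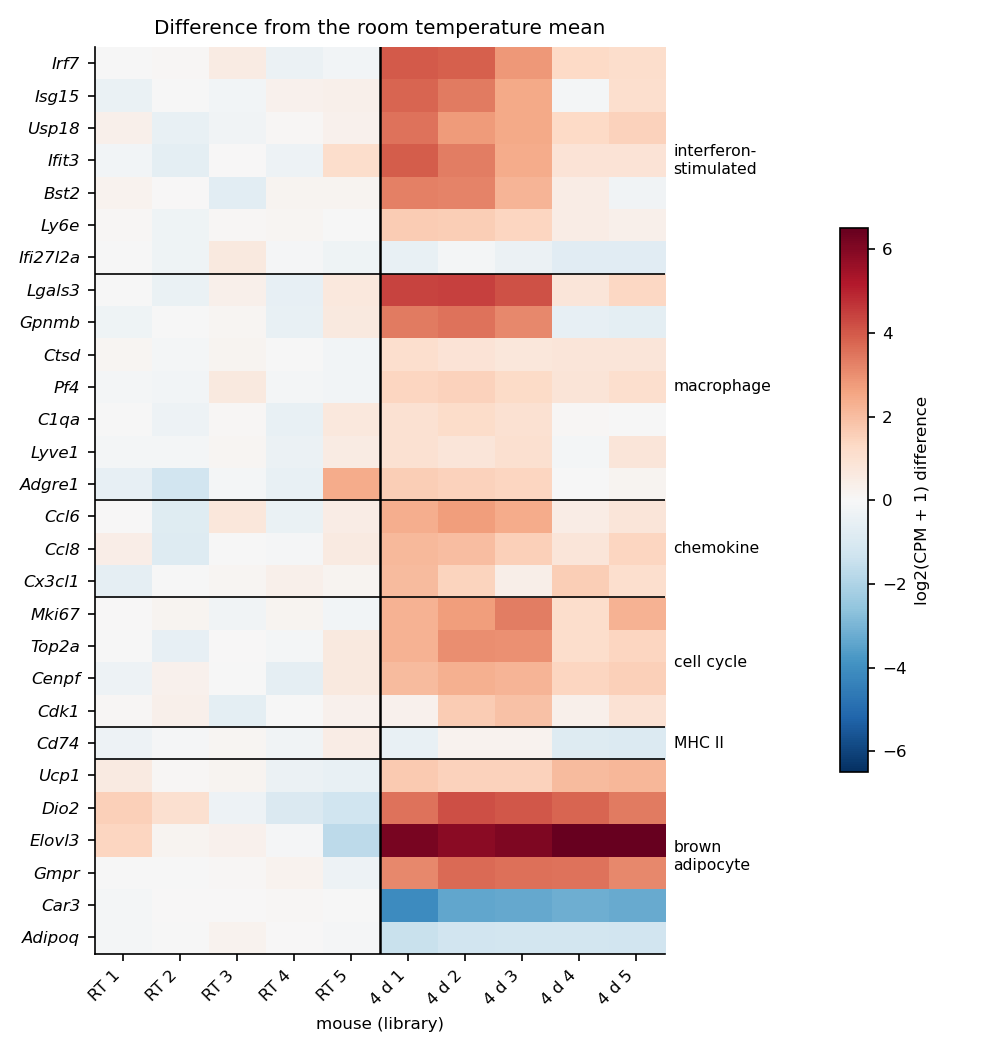
Rows are genes grouped by list and columns are the 10 mice, 5 at room temperature (RT) and 5 after 4 days of cold (4 d). Colour gives the difference of log2(CPM + 1) from the room temperature mean, red higher and blue lower. Most interferon-stimulated and macrophage genes, Ccl6 and Ccl8 are paler in cold-exposed mice 4 and 5 than in mice 1 to 3, while Dio2, Elovl3 and Gmpr are red and Car3 and Adipoq blue in all 5.

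Adipose stromal cells (ASC), which include the progenitors of adipocytes, were followed with the markers that the study gives for them. Of the 4 shared markers, Ly6a, the stem cell antigen Sca-1, rose (1.00 ± 0.17), Dcn, decorin, fell (-0.42 ± 0.10), and the others were not called. Of the 3 ASC1 markers Col5a3 (0.63 ± 0.14) and Cxcl14 (0.48 ± 0.14) rose, the latter losing its call by library size only and with all 7 groups in 1 fit. EdgeR called 0 of 3 ASC2 markers and 0 of 2 tested ASC3 markers, with 1 and 0 at an unadjusted p below 0.05 and 0 and 0 called by DESeq2. Without cold-exposed mouse 5 or control mouse 1, 1 ASC2 marker was called higher. Pi16, a marker of early progenitors, was at -0.46 ± 0.27 (adjusted p = 0.19). Bmper, which binds bone morphogenetic proteins, was at -0.29 ± 0.28 (adjusted p = 0.45). Among early differentiation and imprinted growth genes 0 of 7 rose and 2 fell, among them Dlk1 (-1.58 ± 0.37).

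Of 23 tested collagens 7 rose and 3 fell (median 0.22), against 10 and 2 without cold-exposed mice 4 and 5. Col4a1, a basement membrane collagen, was at 121, 142, 125, 107 and 86.0 CPM at room temperature and 210.2, 214, 209, 199 and 203 CPM in the cold-exposed mice. Its overlap with Col4a2 on the opposite strand adds the uncertainty named above. Col15a1 rose with overlap (0.89 ± 0.25), Col6a6 fell (-2.33 ± 0.50), and Col1a1, the main fibrillar collagen, was at 0.24 ± 0.26 (adjusted p = 0.52). Matrix proteins and remodelling genes rose in 10 of 29 and fell in 4 (median 0.19), against 6 rises without cold-exposed mouse 3 or control mouse 4 or with all 7 groups in 1 fit and 4 by library size only. Loxl1, which crosslinks elastin, was at 28.4, 7.49, 17.6, 11.0 and 8.46 CPM in controls against 63.9, 69.2, 58.3, 40.5 and 53.6 CPM after cold.

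Endothelial genes rose in 5 of 16 tested members and fell in 3 (median 0.11), which was 3 and 2 without cold-exposed mice 4 and 5 and 3 and 3 by library size only. Rbp7, a retinol-binding protein of fat capillaries, was at 12.6, 9.36, 6.80, 8.51 and 8.07 CPM in controls and 28.1, 25, 26.3, 28.3 and 27.6 CPM after cold. Eng, endoglin, rose (1.22 ± 0.17) and Aplnr, the apelin receptor, fell (-1.13 ± 0.26), while Pecam1, present in all endothelium, rose by 0.43 ± 0.13, a call lost without cold-exposed mice 4 and 5 and by library size only. Angiogenic factors had 4 of 10 higher and 3 lower (median -0.16). Angpt1, which stabilizes vessels, was at 42.0, 48.1, 60.2, 49.1 and 54.3 CPM at room temperature and 9.38, 12.2, 16.4, 6.81 and 9.19 CPM in the cold-exposed mice. Fgf1, a fibroblast growth factor, was at 6.83, 4.78, 5.86, 4.25 and 7.68 CPM in controls against 18.8, 17.8, 19.6, 21.1 and 24.7 CPM after cold. Of 9 mural genes, 0 rose and 2 fell, among them Mcam (-1.22 ± 0.21). The summed endothelial markers were 539.6 to 630.5 CPM in controls and 592 to 839 CPM after cold, and their part in the angiogenic counts was not tested. Of 8 Schwann cell and nerve genes, 2 rose and 2 fell, and 1 rose when any of 7 mice was left out, without cold-exposed mice 4 and 5 together, by library size only, with the replicate block or with all 7 groups in 1 fit. Ntrk3, a neurotrophin receptor, was at 164, 116, 211, 195 and 169 CPM in controls and 22.5, 9.99, 29.7, 26.4 and 35.8 CPM after cold, with no overlap.

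Markers of other tissues were followed through the same libraries. Summed skeletal muscle markers ranged from 176 to 1562 CPM in controls and from 331 to 1310 CPM after cold, and edgeR called 0 of 16, with 2 at an unadjusted p below 0.05 and 0 called by DESeq2. The log2 fold change was negative for all 16, and 1 or 2 were called lower without cold-exposed mouse 1 or 5, control mouse 2, or both of cold-exposed mice 4 and 5. Erythroid genes rose in 2 of 5 members and fell in 0, where Hbb-bs rose by 0.63 ± 0.13 and Hba-a1 was at -0.21 ± 0.14 (adjusted p = 0.27). Globin genes have near-identical copies and their counts are uncertain. The erythroid sum was 1908 to 2465 CPM in controls and 2242 to 3517 CPM after cold. Summed T and NK cell markers stayed at or below 9.13 CPM in every library, neutrophil markers at or below 2.72 CPM and epithelial markers at or below 0.614 CPM. Of 2 tested mast cell genes, 1 rose and Kit fell (-1.07 ± 0.23), and the single tested B cell gene rose, a call lost without control mouse 1, 2 or 4. Of all list genes that did not pass the count filter, 19 had no count in any of the 10 libraries, and of the other 210 none was called after adjustment (exact permutation tests, smallest adjusted p = 0.0725) while 45 had an unadjusted p below 0.05. The smallest p these tests allow is 0.00794, so a gene could pass the adjustment only if many others also reached it.

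To place the fourth day, it was set against its neighbours, and these comparisons use the same 5 cold-exposed mice as above. Against 3 days of cold, edgeR called 0 of 10843 genes (0.00%), with 845 at an unadjusted p below 0.05 and 16 called by DESeq2. Against 5 days, edgeR called 0 of 10651 genes (0.00%), with 742 at an unadjusted p below 0.05 and 6 called by DESeq2. The values of the groups did not overlap for 146 genes (1.35%) against 3 days and for 136 genes (1.28%) against 5 days. Without cold-exposed mice 4 and 5, 25 genes were called against 5 days and 0 against 3 days.

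For the 196 named genes, the approximate 95% interval of the log2 fold change (4 days over the other day) lay above 0 for 27 and below 0 for 23 of the 192 tested against 3 days, and above 0 for 14 and below 0 for 21 of the 192 tested against 5 days, with no gene called. The smallest unadjusted p against 3 days were those of Ppara, at 0.62 (interval 0.42 to 0.82) with an adjusted p of 0.165, and Ppargc1a, at 1.07 (interval 0.66 to 1.48) with an adjusted p of 0.245. Against 5 days they were those of Egr1, at -1.66 (interval -2.26 to -1.05) with an adjusted p of 0.183, and Ckb, at 0.83 (interval 0.51 to 1.15) with an adjusted p of 0.205. These 4 genes were chosen after their values were seen. Ucp1 differed from 3 days by a log2 fold change of 0.21 (interval -0.09 to 0.51) and from 5 days by -0.22 (interval -0.52 to 0.07). For Dio2 these were -0.15 (interval -0.47 to 0.17) and 0.23 (interval -0.13 to 0.58), and for Elovl3 -0.0046 (interval -0.33 to 0.32) and -0.33 (interval -0.59 to -0.07). The estimate for Bmp8b against 3 days was 0.75 (interval 0.37 to 1.13), an interval above 0 but not a call (adjusted p = 0.469, edgeR). Cfd against 3 days was at -0.57 (interval -0.87 to -0.26), also not called, with an adjusted p of 0.498. Bdh1 against 5 days was at 0.71 (interval 0.35 to 1.07), again not called, with an adjusted p of 0.583. For immune genes the intervals were wide, with Lgals3 at -0.60 (interval -1.85 to 0.64) against 3 days and 0.07 (interval -1.17 to 1.30) against 5 days. Irf7 was at 0.03 (interval -1.11 to 1.17) and 0.22 (interval -0.84 to 1.28). Top2a gave 0.19 (interval -0.45 to 0.84) against 3 days and 0.53 (interval -0.23 to 1.30) against 5 days. A call missed here does not show that the levels were alike.

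**Figure D5:**
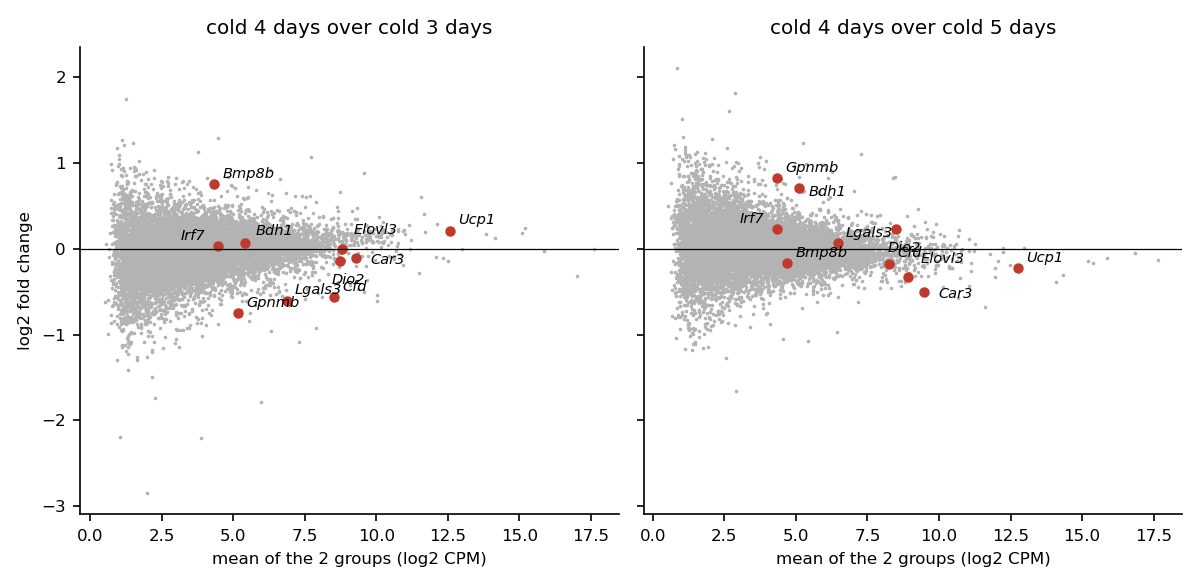
Each grey point is a tested gene, with its mean over the groups compared (log2 CPM) on the horizontal axis and the log2 fold change of 4 days over 3 days (left) or over 5 days (right) on the vertical axis, and red points are named genes. None of the 10843 and 10651 genes passed the edgeR threshold, and Ucp1 lies at 0.21 in the left panel and at -0.22 in the right one.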

How the data were processed

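Whole iBAT was profiled by 3′ RNA-seq with a QuantSeq FWD kit, and the deposited table holds raw read counts per gene, which the authors made with CASAVA 1.8.2, STAR 2.6.1d and HTSeq 0.11.2 on GRCm38 (annotation 98). The strand setting of the counting is not given in the sources used here. Per the labels, 5 libraries of 4 days of cold and 5 of room temperature were compared, with the 5 libraries each of 3 and 5 days of cold as neighbours in time. Column names gave each library's sample and 0 columns were left unused. Library totals of 4200294 to 5943967 counts make 1 read worth 0.168 to 0.238 CPM.

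Symbols were matched for 55154 of 55421 identifiers, the remainder holding 0.00582% of counts, and coordinates are those of GENCODE M21 (GRCm38). Genes were filtered with filterByExpr, scaled by TMM and tested between the groups compared with edgeR 4.0.16 (quasi-likelihood test) in R 4.3.3, with Benjamini-Hochberg adjustment over all genes tested. No covariate was used. DESeq2 1.42.0 was an alternative test. Scarce list genes and library measures were compared by exact two-sided permutation over the 252 splits of 5 against 5 mice, on log2 CPM with a prior count of 2 for genes. Intervals are 95% intervals, approximate for log2 fold changes, where they come from the SE by a normal approximation. Like the floor of 3 counts, those on counts cover counting error only. On simulated counts for this comparison, with 10997 genes tested, 82 of 100 genes changed 2-fold and 99 of 100 changed 4-fold were recovered, with 13 false calls. The spread in the simulation was assumed and not estimated from these mice. Far fewer genes were changed in it than were called here, and none of those was scarce. Summaries were made in Python 3.11.15 with pandas 2.3.3, numpy 2.4.6 and scipy 1.17.1, and figures with matplotlib 3.10.9.

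Named genes were the 15 with the largest fold change in each direction (called, with a symbol, 50 or more counts on average, and groups apart), the 5 in each direction with the largest difference in CPM, and members of 66 gene lists, each described with its whole list. Against 3 and 5 days, genes were to be named from those called with 20 or more counts on average, and none was called. The members and lists were chosen with earlier results of these data known, and the mitochondrial tRNA set after its values were seen. Promoter sequences are from RefSeq (GRCm38.p6). Values of some list members are not reported here, although list counts include them.

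The alternatives were RLE size factors, library size only, no filter or a stricter filter on low counts, DESeq2, the replicate number as a block, all 7 groups in 1 fit, counts without mitochondrial genes and Gm42418, each library left out in turn and, chosen after seeing the data, both of cold-exposed mice 4 and 5 left out.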

Additional observations from a re-analysis of the deposited data

Results flagged for a closer look

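Within each group of 5 mice, the highest and lowest value of every named gene was set against the others by Dixon's ratio, and 24 of the groups examined (2 for each of 196 genes) held a value beyond its critical value of 0.71. Chance alone marks about 1 in 20 groups. Each value is given in CPM with the nearest other mouse of its group. Among controls, values lay above the group for Gm32468 in mouse 1 (2.69 against 0.532), mt-Tl2 in mouse 3 (5.62 against 2.50), Svep1 in mouse 2 (90.9 against 38.1) and Hacd2 in mouse 1 (126 against 69.1). The same held for Alpl in mouse 1 (6.21 against 3.94), Pf4 in mouse 3 (21.8 against 12.4), Adgre1 in mouse 5 (19.7 against 2.58) and Ifit3 in mouse 5 (10.8 against 4.45). The same held for Ifi27l2a in mouse 3 (584 against 374) and Col1a1 in mouse 1 (239 against 108). Controls lay below their group for 5930430L01Rik in mouse 2 (10.2 against 20.9), Srebf1 in mouse 2 (55.3 against 72.8), Sqle in mouse 3 (0.469 against 1.24) and Fabp3 in mouse 3 (459 against 594). The same held for Bst2 in mouse 3 (1.41 against 2.91). Among cold-exposed mice, values lay above the group for Cfd in mouse 4 (373 against 307), Pxmp2 in mouse 4 (13.2 against 5.74) and Adrb3 in mouse 4 (214 against 153). The same held for Nfil3 in mouse 3 (14.9 against 11.1). Cold-exposed mice lay below their group for Gm32468 in mouse 2 (13.3 against 28.3), Car3 in mouse 1 (399 against 651), Elovl5 in mouse 2 (42.4 against 61.3) and Pgam1 in mouse 5 (33.7 against 36.3). The same held for Atp2a2 in mouse 3 (195 against 231). In several of these genes the value that stood apart lay on the side of the other group, as for Hacd2, Alpl and Pf4 in controls and Pxmp2 in a cold-exposed mouse, without bringing the groups to overlap. For Adgre1 and Ifit3, the value of control mouse 5 did bring them to overlap. The cause was not tested.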

How the results depend on the processing

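Against room temperature, the count of called genes stayed within 1.5 times the main 4196 (2140 higher, 2056 lower) under every alternative run. With each library left out in turn it ranged from 3608 to 4094 (1841 to 2121 higher, 1767 to 1992 lower), and without cold-exposed mice 4 and 5 it was 3997. Scaling by library size only moved the median of all genes from -0.02 to -0.155 on the log2 scale and the split to 1440 higher and 2670 lower, 35.0% higher against 51.0%, so directions of small changes are relative to TMM. With the replicate number as a block, 1919 genes were higher and 1828 lower. Same-numbered mice of the 2 groups did not deviate together (correlations of -0.173 to 0.0323), so the numbers gave no sign of pairing here. The correlations were -0.277 to 0.168 against 3 days and -0.172 to 0.185 against 5 days. Whether mice of the same number shared a batch was not tested.

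The comparisons with neighbouring days were the ones that moved. Against 3 days, 0 genes became 141 without the filter (65 higher, 76 lower), 16 with DESeq2 (7 higher, 9 lower), and 0 to 1 with 1 library left out (1 lower without replicate 2 of 4 days). Against 5 days, 0 genes became 98 without the filter (58 higher, 40 lower), 6 with DESeq2 (5 higher, 1 lower), 25 without cold-exposed mice 4 and 5 (18 higher, 7 lower), and 0 to 1 with 1 library left out (1 higher without replicate 1 of 4 days). The cause was not tested. With the replicate block, 0 genes were called in both.

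Of the 196 genes named, 174 kept their side of the threshold under every alternative, none changed direction, and 13 lost their call in a fit without 1 library. Of 2508 list counts under alternatives, 2307 stayed within 1.5 times the main count, and 94 of the 201 that moved did so with a single library left out, most of them counts of 5 or fewer genes. In the simulated data, with this depth and 5 mice a group but an assumed spread, 82 of 100 genes changed 2-fold were recovered. The share recovered among scarce genes, or genes that vary more between mice, was not tested.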
